A study of Mus musculus with 10 samples.

Results

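In all, 10 genes of the Notch pathway were followed through the liver RNA of mice given VEGF-A, namely the ligands Dll1, Dll4, Jag1 and Jag2, the receptors Notch1 and Notch4, and the transcription factor genes Hes1, Hey1, Hey2 and Heyl, which Notch activates. They were chosen by gene symbol, and each matched 1 of the 24016 RefSeq transcripts in the deposited table, so that 10 of 24016 rows are described. All 10 libraries came from the livers of male C57BL/6 mice aged 8 to 12 weeks, collected on day 6 after an adenovirus was injected into the tail vein. The AdVEGF group (5 mice) received a serotype 5 adenovirus expressing VEGF-A165 under the CMV promoter, and the AdCMV group (5 mice) received an adenovirus that holds the CMV promoter and no transgene. All mice had therefore received a vector, and no group without virus is compared here. The CMV promoter is active in many cell types, so the cells that made the VEGF-A are not defined by it. The labels number the mice of each group as biological replicates. VEGF-A, vascular endothelial growth factor A, is a secreted factor that acts on receptors of endothelial cells, and the question addressed here is how the Notch genes differed in the liver after its overexpression.

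Notch signaling passes between touching cells. A Delta-like (Dll) or Jagged (Jag) ligand on one cell binds a Notch receptor on its neighbour, proteases including γ-secretase release the intracellular part of the receptor, and this part joins the DNA-binding protein RBPJ to switch on genes of the Hes and Hey families, which encode repressors. In growing vessels, VEGF-A is known to induce Dll4 in the leading tip cells and Dll4 to restrain the cells behind them. In the liver, Notch is also known for the formation of bile ducts and for the identity of the sinusoidal endothelium.

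The values are RPKM (reads per length of transcript and per mapped tag of each library), which allows for transcript length and for the library total. Differences in make-up between libraries stay in these values and bear on comparisons between mice. The whole reads behind them were recovered from the steps of the values, and gave 5758960 to 13494005 mapped tags in the AdCMV libraries and 5596564 to 8133950 in the AdVEGF libraries. The near-identical major urinary protein (Mup) genes of hepatocytes took 18.0% to 50.5% of the reads on transcripts in the AdCMV group and 7.84% to 28.6% in the AdVEGF group. The reads on transcripts exceeded the mapped tags in every library (10744078 against 9429223 in AdCMV mouse 4). These percentages are therefore not shares of the mapped tags. The median log2 fold change of the 13933 genes tested was 0.38, and it was -0.011 after median-ratio scaling between libraries. Of the calls over all genes, 89.4% were higher in the AdVEGF group on the deposited scale and 70.4% after this scaling. All 8 hepatocyte markers, which include albumin (Alb), were tested and were high in both groups, with summed levels of 15837 to 20443 RPKM in the AdCMV mice against 28498 to 35968 RPKM in the AdVEGF mice. Of the 8, Alb and Apoa1, which make up most of this sum, were called higher on the deposited scale and the other 6 were not called; after median-ratio scaling 0 were called higher and 1, Tdo2, lower.

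On the deposited scale, 7 of the 10 Notch genes were called higher in the AdVEGF group and 0 lower, where 13% of the genes tested were called higher and 1.54% lower (limma on log2(RPKM + 0.1), Benjamini-Hochberg adjustment; a call needed an adjusted p under 0.05 together with a change beyond 1 on the log2 scale, in either direction). After median-ratio scaling 6 of them, all but Notch1, were called higher and 0 lower, where 7.63% of the genes tested were called higher and 3.21% lower. No member had a negative fold change with an unadjusted p under 0.05, and voom on the recovered reads also gave 7 higher and 0 lower. The 7 were Hey1, Dll4, Notch4, Heyl, Hes1, Jag1 and Notch1, in order of their fold changes. Dll1 was tested and not called, and Jag2 and Hey2 stayed below the filter of 0.5 RPKM in both groups. Hey1, Notch4 and Heyl passed this filter only through the AdVEGF group and thus had to differ between the groups to be tested at all, so that the count of 7 is a description. The AdVEGF mice lay above the AdCMV mice with no overlap for 9 of the 10 genes, all except Dll1, against 11.5% of the 18554 transcripts with a read in any library. In whole-liver RNA, more cells of a type and more RNA per cell cannot be told apart, and this holds for each value below.

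**Figure D1:**
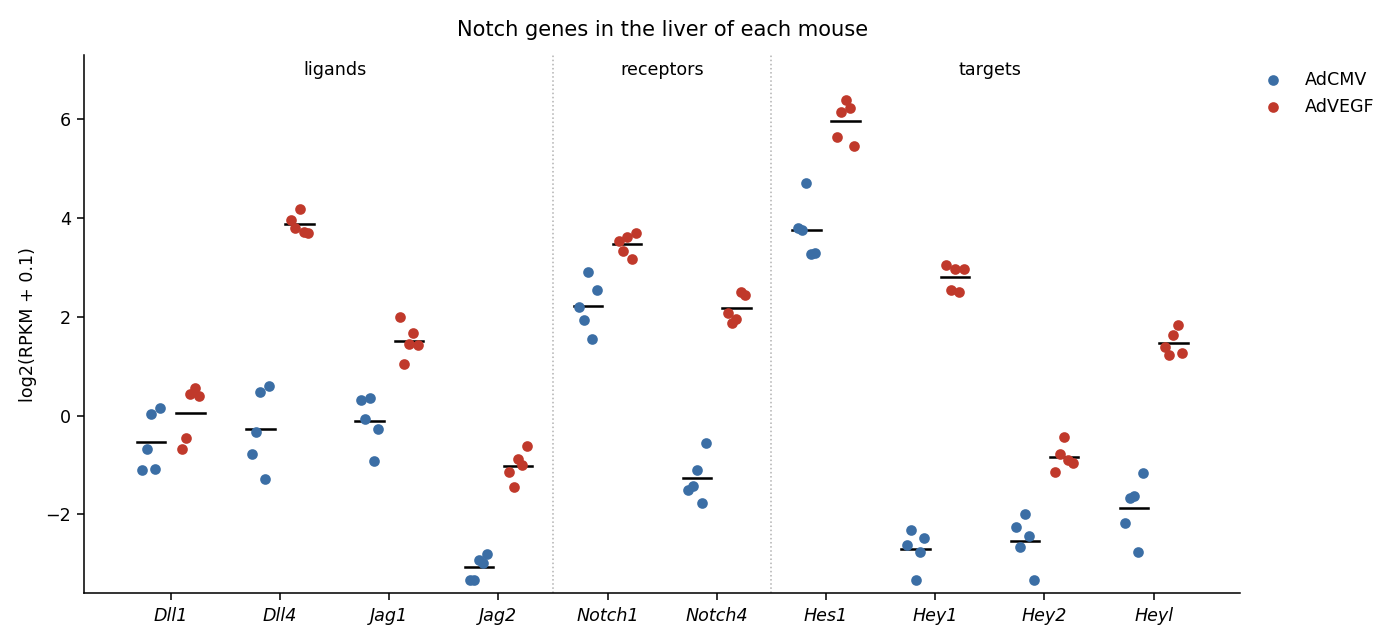
Level of each Notch gene in the liver of each mouse, as log2(RPKM + 0.1), with 1 point a mouse (5 AdCMV, blue; 5 AdVEGF, red) and a line at the group mean. The groups overlap for Dll1 alone, and the gap between them is widest for Hey1, from at most 0.101 RPKM in the AdCMV mice to at least 5.59 RPKM in the AdVEGF mice.

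Before the values, the stretches of DNA in front of some of these genes are shown, because RBPJ, which carries the Notch signal to DNA, and the ETS factors that endothelial cells use in abundance bind short motifs there. The 250 bases before the annotated start were taken from RefSeq (assembly GRCm38.p6). They were found for 7 of the 10 genes, with 2 starts for Dll1 and thus 8 promoters, and not for Hes1, Hey1 and Heyl. Both strands were searched for TGGGAA, the core of the RBPJ motif, and for GGAA, the ETS core, which any TGGGAA also contains. TGGGAA occurred in 1 of the 8 promoters, that of Hey2, and in 21.6% of the 32851 promoters of the whole table. GGAA occurred in 7 of the 8, all except that of Jag2, and in 93.4% of the whole table. The promoters of Dll4 and Hey2 are printed from 5′ to 3′ on the strand of the gene, at chr2:119325534-119325783 (+ strand) and chr10:30842784-30843033 (- strand). Capitals mark GGAA, or TTCC where it lies on the other strand, and for Hey2 the TGGGAA, which lies on the other strand and reads TTCCCA, 207 bases before the start.
Dll4: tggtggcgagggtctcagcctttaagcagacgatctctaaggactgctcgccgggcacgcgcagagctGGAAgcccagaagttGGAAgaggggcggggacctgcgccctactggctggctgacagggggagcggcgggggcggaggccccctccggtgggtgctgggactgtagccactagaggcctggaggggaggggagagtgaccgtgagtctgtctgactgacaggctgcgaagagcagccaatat
Hey2: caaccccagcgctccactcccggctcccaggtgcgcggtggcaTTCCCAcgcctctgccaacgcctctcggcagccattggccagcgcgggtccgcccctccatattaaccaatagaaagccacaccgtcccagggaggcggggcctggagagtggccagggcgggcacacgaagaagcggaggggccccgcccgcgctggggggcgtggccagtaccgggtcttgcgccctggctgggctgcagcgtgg
These windows hold 2 GGAA matches for Dll4 and 1 for Hey2, where the median promoter of the table holds 3, and a match of letters does not show that a factor binds there.

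Dll4, the Delta-like ligand of arterial and tip cell endothelium, had the largest log2 fold change of the ligands tested. Its transcript (NM_019454) lies on chromosome 2 from 119151520 to 119161402, on the + strand of mm9, the build named in the submitters' processing notes. Its level was 0.482, 0.690, 1.29, 0.308 and 1.41 RPKM in AdCMV mice 1 to 5. In AdVEGF mice 1 to 5 it was 15.5, 13.7, 18.1, 13.1 and 12.9 RPKM. Every AdVEGF mouse thus lay far above the highest AdCMV mouse, with a mean of 14.7 ± 2.20 RPKM (SD, n = 5) against 0.837 ± 0.492 RPKM (SD, n = 5). The values rest on 298 to 366 reads a mouse in the AdVEGF group and on 10 to 35 in the AdCMV group. The log2 fold change was 4.14 (standard error, SE, 0.32; adjusted p = 1.27e-07, limma), ranked 18 by size among all genes tested, and 3.78 after median-ratio scaling. An antisense transcript listed as Gm14207 shares 414 bases with the start of Dll4, and the sources used here do not say whether reads were counted by strand. Gm14207 itself had 6 to 29 reads in the AdVEGF mice and 0 to 2 in the AdCMV mice, so the reads that the transcripts could share are few beside those of Dll4.

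Jag1, the Jagged ligand that endothelium, smooth muscle and portal mesenchyme are known to express, was higher as well, by a smaller factor. Its transcript (NM_013822) lies on the - strand of chromosome 2 from 136907187 to 136942256. Its level in the AdCMV mice was 1.14, 0.854, 1.18, 0.427 and 0.731 RPKM, and in the AdVEGF mice it was 3.88, 1.97, 2.62, 3.10 and 2.58 RPKM. The groups did not overlap, with a mean of 2.83 ± 0.71 RPKM (SD, n = 5) in the AdVEGF group and 0.867 ± 0.311 RPKM (SD, n = 5) in the AdCMV group. The log2 fold change was 1.64 (SE 0.29; adjusted p = 0.000565, limma) and 1.27 after median-ratio scaling. The call was lost with limma's treat, which asks for a change beyond 1 on the log2 scale.

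Dll1, a Delta-like ligand known from many tissues, showed no difference larger than the spread among the mice of a group. In the AdCMV mice it stood at 0.364, 0.521, 0.929, 0.373 and 1.02 RPKM, and in the AdVEGF mice it was 0.521, 0.631, 1.26, 1.37 and 1.22 RPKM. AdVEGF mice 1 and 2 lay within the range of the AdCMV mice, and the other 3 lay above it. The means were 0.999 ± 0.392 RPKM and 0.641 ± 0.311 RPKM (SD, n = 5 each), and the log2 fold change was 0.59 (SE 0.37; adjusted p = 0.254, limma), with an exact permutation p of 0.159 (two-sided). Per mapped tag the ratio of reads was 1.69, with a 95% interval of 1.27 to 2.24 from counting error alone, while both tests that use the spread between mice did not pass. Median-ratio scaling brought the log2 fold change to 0.24.

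Jag2, the second Jagged ligand, was scarce in every mouse. It had 0, 0, 0.032, 0.026 and 0.043 RPKM in the AdCMV mice and 0.354, 0.268, 0.444, 0.397 and 0.554 RPKM in the AdVEGF mice. These are 3 reads in all over the AdCMV group and 54 over the AdVEGF group, and each AdVEGF mouse had at least 8 reads where each AdCMV mouse had at most 1. Per mapped tag the ratio of reads was 23.5, with a 95% interval of 7.63 to 118 that covers counting error only. Without the filter on low values Jag2 was called higher (limma adjusted p = 5.64e-05, where 10.4% of the 18554 transcripts were called higher).

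The make-up of the ligand message differed between the groups as well. As a share of the summed RPKM of the 4 ligands in the same mouse, which is independent of the scaling between libraries, Dll4 made up 24.3% to 44.1% in the AdCMV group and 72.9% to 82.7% in the AdVEGF group. The share of Jag1 was 22.8% to 57.3% against 11.7% to 19.1%, and that of Dll1 18.4% to 32.9% against 2.57% to 7.62%. For all 3 the ranges were apart, so that Dll4, which was the most abundant of the ligands in AdCMV mice 3 and 5 only, was so in every AdVEGF mouse. The ratio of Dll4 to Jag1 was 0.424 to 1.93 in the AdCMV group and 4.01 to 6.97 in the AdVEGF group. These shares were chosen after the values had been seen and carry no test.

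**Figure D2:**
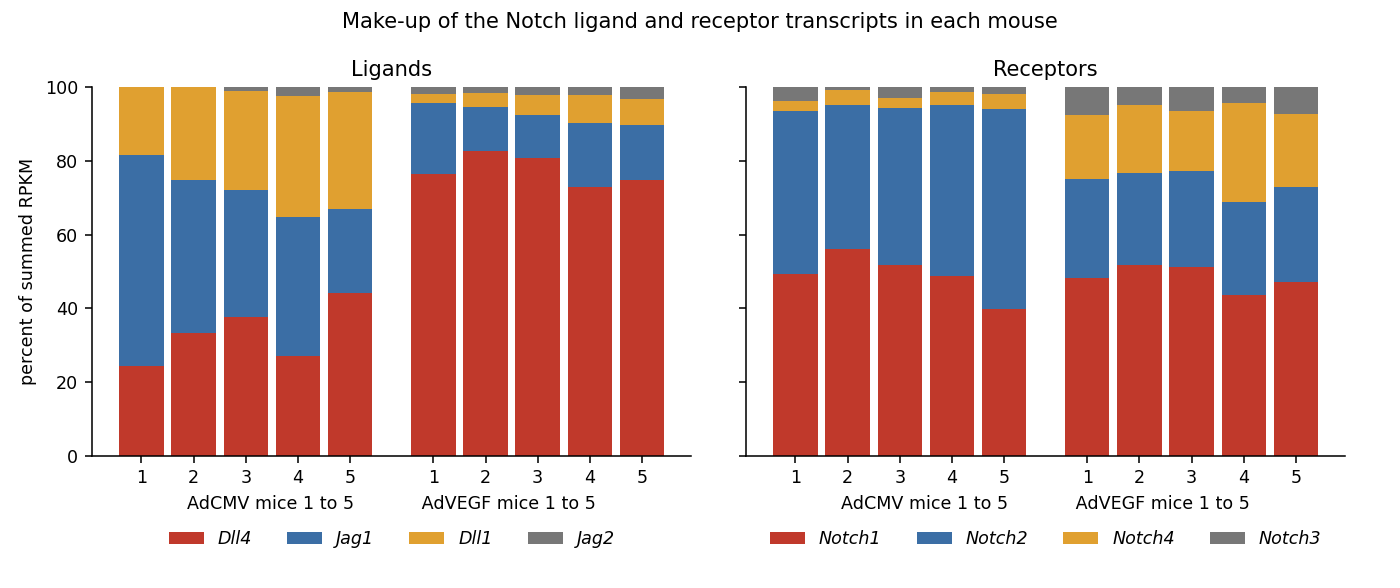
Make-up of the summed RPKM of the 4 ligands (left panel) and of Notch1 to Notch4 (right panel) in each mouse, in percent of the sum (stacked bars from 0 to 100, AdCMV mice on the left and AdVEGF mice on the right of each panel). Dll4 fills 72.9% to 82.7% of the ligand bars in the AdVEGF mice, and Notch4 fills 16.1% to 27.0% of the receptor bars there.

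The 2 member receptors changed unequally. Notch4, a receptor known to be largely restricted to endothelium, has its transcript (NM_010929) on the + strand of chromosome 17 from 34701240 to 34725488. The AdCMV mice had 0.252, 0.271, 0.367, 0.194 and 0.581 RPKM, and the AdVEGF mice 4.14, 3.54, 3.81, 5.54 and 5.36 RPKM. The lowest AdVEGF mouse thus lay several times above the highest AdCMV mouse, with 140 to 296 reads a mouse in the AdVEGF group and 12 to 24 in the AdCMV group. The means were 4.48 ± 0.913 RPKM and 0.333 ± 0.152 RPKM (SD, n = 5 each). The log2 fold change was 3.44 (SE 0.29; adjusted p = 2.62e-07, limma), and 3.10 after median-ratio scaling.

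Notch1, a receptor of endothelium and of many other cells, was the most abundant receptor among the members in both groups. Its transcript (NM_008714) lies on the - strand of chromosome 2 from 26313422 to 26359342. In the AdCMV mice it was 4.485, 3.70, 7.42, 2.83 and 5.77 RPKM, and in the AdVEGF mice it was 11.5, 9.94, 12.1, 8.92 and 12.9 RPKM. The groups did not overlap, although AdCMV mouse 3 came close to AdVEGF mouse 4. The means were 11.1 ± 1.62 RPKM and 4.84 ± 1.80 RPKM (SD, n = 5 each), over 1898 reads in all in the AdCMV group and 3456 in the AdVEGF group. The log2 fold change was 1.24 (SE 0.24; adjusted p = 0.00132, limma), but 0.85 after median-ratio scaling, 0.89 after upper quartile scaling and 0.84 with library totals that leave out the Mup genes, below the threshold of 1 each time. Notch1 and Jag2 each overlap a microRNA gene in the table, Mir6996 and Mir6941.

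The promoters of the receptors are set side by side here, since they held the most GGAA among the members, 5 for Notch4 and 4 for Notch1, and no TGGGAA. They lie at chr17:34564045-34564294 (+ strand) and chr2:26503823-26504072 (- strand) of GRCm38.p6 and are printed on the strand of the gene, with GGAA or TTCC in capitals.
Notch4: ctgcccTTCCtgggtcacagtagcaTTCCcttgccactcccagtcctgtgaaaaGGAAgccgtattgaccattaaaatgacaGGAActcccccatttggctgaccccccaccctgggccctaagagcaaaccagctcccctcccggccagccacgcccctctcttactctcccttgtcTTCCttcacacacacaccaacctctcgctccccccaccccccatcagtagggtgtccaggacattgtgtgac
Notch1: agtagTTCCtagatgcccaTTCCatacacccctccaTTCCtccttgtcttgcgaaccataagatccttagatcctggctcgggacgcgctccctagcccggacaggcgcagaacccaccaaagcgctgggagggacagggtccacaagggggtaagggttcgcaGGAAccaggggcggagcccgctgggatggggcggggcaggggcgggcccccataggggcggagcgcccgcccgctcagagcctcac
Jag1 had 3 such matches, and the numbers of matches are given as a description of these windows only.

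Within a mouse, the share of Notch4 among the receptors was higher in the AdVEGF group. It made up 2.56% to 4.11% of the summed RPKM of Notch1, Notch2, Notch3 and Notch4 in the AdCMV group and 16.1% to 27.0% in the AdVEGF group. The share of Notch1 was 39.9% to 56.1% and 43.6% to 51.7%, which overlap. Notch2, which hepatocytes and bile duct cells are known to express, made up 39.1% to 54.3% in the AdCMV group and 25.0% to 26.7% in the AdVEGF group. The share of Notch3, known from mural cells, was 0.712% to 3.64% and 4.17% to 7.57%. Except for Notch1, the ranges of the groups were apart. The ratio of Notch1 to Notch4 was 9.93 to 20.2 in the AdCMV group and 1.61 to 3.18 in the AdVEGF group.

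Among the targets, Hey1, a repressor that acts downstream of Notch in arterial endothelium, went from near absence to the fourth highest mean of the set. Its transcript (NM_010423) lies on the - strand of chromosome 3 from 8663359 to 8667038. In AdCMV mice 1 to 5 its level was 0.063, 0.101, 0, 0.048 and 0.079 RPKM, which are 6 reads in all. The AdVEGF mice had 8.18, 5.70, 7.72, 5.59 and 7.71 RPKM, with 93 to 114 reads a mouse. No AdCMV mouse had more than 3 reads, and the AdVEGF mice lay within a narrow range. Per mapped tag the ratio of reads between the groups was 110, with a 95% interval of 50.0 to 300.1 from counting error alone. The log2 fold change on the log2(RPKM + 0.1) scale was 5.50 (SE 0.29; adjusted p = 2.32e-09, limma) and 5.20 after median-ratio scaling, and its size depends on the value added before the logarithm.

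Hes1, a target that many liver cells express, was the most abundant of the 10 genes in every mouse. Its transcript (NM_008235) lies on the + strand of chromosome 16 from 30065443 to 30067882. Its level in the AdCMV mice was 13.8, 13.5, 26.2, 9.54 and 9.73 RPKM, and in the AdVEGF mice it was 49.6, 71.3, 83.6, 74.6 and 43.9 RPKM. AdCMV mouse 3 stood apart from the other mice of its group but stayed below every AdVEGF mouse. The means were 64.6 ± 17.0 RPKM and 14.5 ± 6.80 RPKM (SD, n = 5 each), with a log2 fold change of 2.20 (SE 0.27; adjusted p = 1.23e-05, limma) and 1.80 after median-ratio scaling.

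Heyl, a Hey family member known from vascular smooth muscle and pericytes as well as endothelium, has its transcript (NM_013905) on the + strand of chromosome 4 from 122910799 to 122927113. The AdCMV mice had 0.122, 0.213, 0.224, 0.047 and 0.345 RPKM, and the AdVEGF mice 2.52, 2.23, 3.00, 3.48 and 2.30 RPKM. The groups were apart by a wide margin, with 64 to 128 reads a mouse in the AdVEGF group and 2 to 13 in the AdCMV group. The means were 2.71 ± 0.527 RPKM and 0.190 ± 0.113 RPKM (SD, n = 5 each). The log2 fold change was 3.35 (SE 0.34; adjusted p = 1.86e-06, limma), and 3.06 after median-ratio scaling.

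Hey2, a Hey family member of arteries and heart and the one with a TGGGAA in the window printed above, was low in both groups. The AdCMV mice had 0.109, 0.059, 0.151, 0.084 and 0 RPKM, and the AdVEGF mice 0.353, 0.480, 0.637, 0.438 and 0.412 RPKM. The groups did not overlap, but they rest on 9 and 39 reads in all. Per mapped tag the ratio of reads was 5.67, with a 95% interval of 2.70 to 13.3 from counting error alone. Without the filter Hey2 was called higher (limma adjusted p = 0.00115).

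In the make-up of the 4 targets, Hes1 made up 95.8% to 98.6% of their summed RPKM in the AdCMV group and 80.8% to 89.4% in the AdVEGF group. The share of Hey1 was at most 0.778% in the AdCMV group and 6.65% to 14.2% in the AdVEGF group, so these ranges were apart, while those of Hey2 and Heyl overlapped. By an exact permutation test of each gene alone (two-sided), the 9 genes other than Dll1 reached p = 0.00794, the smallest that 5 against 5 mice allow. Groups of this size that do not overlap always give this p. It therefore restates the lack of overlap given above, which 11.5% of the transcripts with a read also showed in this direction.

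The order of the levels also differed between the groups. In the AdCMV group the order of the mean RPKM was Hes1, Notch1, Jag1, Dll4, Dll1, Notch4, Heyl, Hey2, Hey1 and Jag2. The ranges of Hes1 and Notch1 were apart from each other and from those of the genes that follow, while from Jag1 downwards the ranges of neighbours overlapped. In the AdVEGF group the order was Hes1, Dll4, Notch1, Hey1, Notch4, Jag1, Heyl, Dll1, Hey2 and Jag2. Dll4 lay above Notch1 in 4 of the 5 AdVEGF mice, and Hey1 above Notch4 in all 5. Neighbours whose ranges overlapped in this group were Dll4 and Notch1, Notch4 and Jag1, Jag1 and Heyl, Dll1 and Hey2, and Hey2 and Jag2.

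Markers of endothelial cells were also higher in the AdVEGF group. All 14 pan-endothelial markers, which include Pecam1 and Cdh5, were called higher, with a summed level of 45.5 to 89.1 RPKM in the AdCMV mice against 373 to 474 RPKM in the AdVEGF mice and a mean log2 fold change of 2.74. The 8 sinusoidal markers were also all called higher (7 after median-ratio scaling), with sums of 54.4 to 94.7 RPKM and 198 to 283 RPKM. The 10 stellate and mural markers were all called higher too (9 after scaling), with sums of 41.7 to 66.2 RPKM and 170 to 309 RPKM, and their part in the values of Jag1, Heyl and Notch3 was not tested. Of the 8 cholangiocyte markers, 5 were tested and 1 of them, Spp1, was called higher, with sums of 25.5 to 55.0 RPKM and 284 to 728 RPKM that consist mostly of Spp1. The bile duct transcription factor Sox9 had means of 5.34 and 10.1 RPKM in the AdCMV and AdVEGF groups, which did not overlap. Its log2 fold change was 0.88 (adjusted p = 0.00653, limma), under the threshold of 1. Once libraries were scaled by median ratios, Sox9 stood at 0.49 and no longer passed the test (adjusted p = 0.108, limma). The bile duct keratin Krt19 was at most 0.855 RPKM in the AdCMV mice and at most 0.901 RPKM in the AdVEGF mice. Of the Kupffer cell markers 3 of 7 were called higher (2 after scaling), against 13% of all genes tested (7.63% after scaling). Of the T and NK cell markers 5 of the 6 tested were called lower (6 after scaling), against 1.54% of all genes tested (3.21% after scaling).

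To set the Notch genes against the endothelial transcripts of the same liver, the mean log2(RPKM + 0.1) of the 14 pan-endothelial markers was subtracted in each mouse and the same limma fit was run over all genes, with calls at an adjusted p under 0.05 and no threshold on the fold change. On this relative scale 0.517% of the 13933 genes were above, meaning that they rose more than the markers, and 95.6% were below. The 14 markers did not move alike, with log2 fold changes from 1.43 to 5.33. On the relative scale 1 of the 14 was itself above, by 2.60, and 3 were below. A gene above their mean thus need not be above each marker. Of the members, Hey1, Notch4 and Heyl entered this fit only through the AdVEGF group, so their values and p here are a description. Hey1 was above by 2.77 on the log2 scale (SE 0.31, adjusted p = 9.78e-07) and Dll4 by 1.41 (SE 0.19, adjusted p = 5.47e-06). Both were above in each of the alternatives tried, but their size moved with the settings. For Hey1 it was 0.54 with a pseudocount of 1 and 4.23 with 0.01, and for Dll4 it was 0.76 with a pseudocount of 1 and 0.92 with the median of the markers. Notch4 was above by 0.71 (SE 0.19, adjusted p = 0.00291) and Heyl by 0.61 (SE 0.23, adjusted p = 0.0202), but their sign turned with 1 in place of 0.1 added before the logarithm, and neither passed the test when the median of the markers replaced their mean. Heyl also lost its call without AdVEGF mouse 4 (0.54, adjusted p = 0.0583). Against the sinusoidal markers, which rose less (mean log2 fold change 1.73), Notch4 was above by 1.71 (adjusted p = 4.84e-06, limma). Heyl was above these by 1.62 (adjusted p = 2.36e-05, limma). For Notch4 and Heyl, whether they rose more than the endothelial markers therefore depends on these settings.

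Notch1, Dll1 and Jag1 were below the endothelial markers, as were 95.6% of all genes tested. The median relative value of all genes was -2.35, lower than that of any of these members. The relative log2 value was -1.49 for Notch1 (SE 0.15, adjusted p = 4.16e-07), -2.15 for Dll1 (SE 0.27, adjusted p = 3.33e-06) and -1.10 for Jag1 (SE 0.25, adjusted p = 0.000844). Against the sinusoidal markers the value of Jag1 was -0.098 (adjusted p = 0.697). Hes1 had a relative value of -0.53 that did not pass the test (SE 0.26, adjusted p = 0.0683). Without AdCMV mouse 5 its value was -0.77 and passed, and with the median of the markers it was -1.01 and passed, while against the sinusoidal markers it was 0.47 and did not (adjusted p = 0.109). Against Pecam1 alone, the ratio of Dll4 was 0.0939 to 0.204 in the AdCMV group and 0.440 to 0.567 in the AdVEGF group. The ratio of Notch1 to Pecam1 was 0.832 to 1.28 in the AdCMV group and 0.320 to 0.441 in the AdVEGF group. The ranges of both ratios were apart, in opposite directions.

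**Figure D3:**
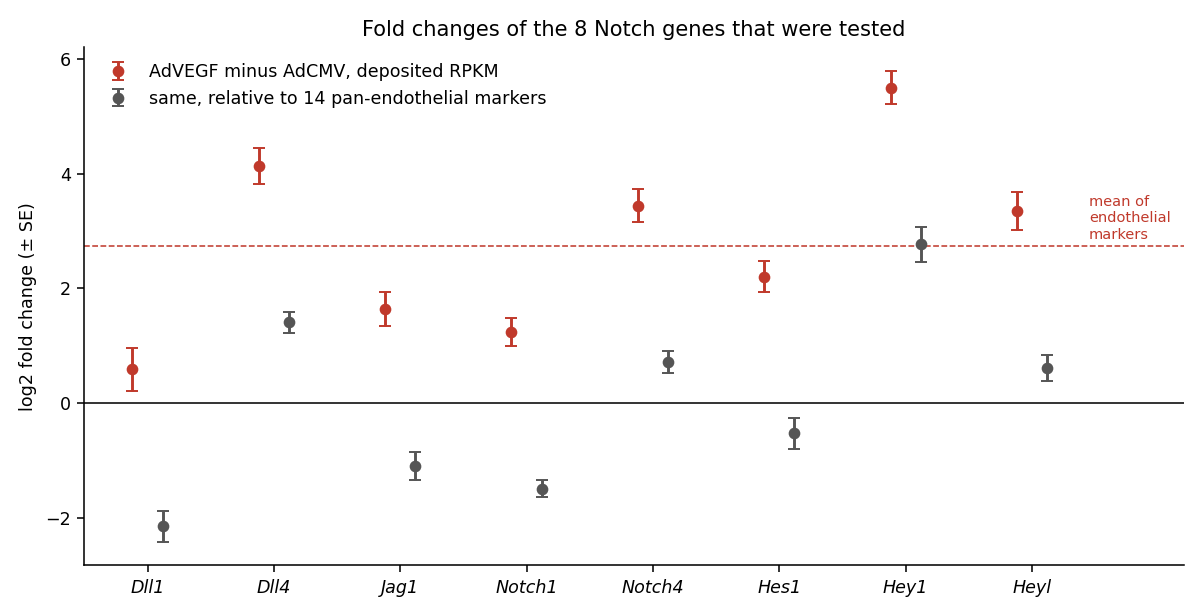
Log2 fold changes of the 8 Notch genes tested, AdVEGF minus AdCMV, on the deposited scale (red) and relative to the mean of the 14 pan-endothelial markers (grey), with standard errors as bars. The dashed line is the mean log2 fold change of these markers (2.74). Hey1 (2.77) and Dll4 (1.41) stay well above 0 on the relative scale, while Notch1 (-1.49), Dll1 (-2.15) and Jag1 (-1.10) lie below it. The median of all genes on the relative scale, which is not drawn, was -2.35. Hey1, Notch4 and Heyl passed the filter only through the AdVEGF group.

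Of the 10 genes, 9 had their highest AdCMV value in mouse 3 or mouse 5, where 88.9% of the 13933 genes tested did so. Mouse 4 had the lowest value for 6 of the 10 and for 55.8% of all genes. The mean log2(RPKM + 0.1) of the endothelial markers was 2.18 and 2.16 in AdCMV mice 3 and 5, 1.21 in mouse 4, and 1.40 and 1.47 in mice 1 and 2. It was 4.29 to 4.53 in the AdVEGF mice. After subtraction of the endothelial mean, the standard deviation within the group was smaller for 7 of the 10 genes in the AdCMV group and for 9 of the 10 in the AdVEGF group, against 67.2% and 51.9% of all genes. Mouse 4 also had the highest Mup share of the AdCMV group (50.5%) and mouse 3 the lowest (18.0%), and the part of these shares in the spread was not tested.

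The wider pathway was read from a list of 56 other genes, all of them in the table and 45 of them tested. Of the 45, 8 were called higher and 0 lower, against 13% and 1.54% of all genes tested (limma). Notch3, Maml3 and Numbl, 3 of the 8, passed the filter only through the AdVEGF group, so this count too is a description. At an unadjusted p under 0.05 (limma, deposited scale), 18 had a positive and 0 a negative fold change. The share of all genes at this p was not counted, so the 18 are a description only. By voom, 8 were higher and 0 lower. The median log2 fold change of the 45 was 0.46 beside 0.38 for all genes, or 0.079 beside -0.011 after median-ratio scaling, which also called 8 higher. Relative to the pan-endothelial markers, 42 of the 45 (93.3%) were below and 0 above, close to the 95.6% of all genes that were below.

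The genes called higher came from several steps of the pathway. Nrarp, a Notch target that limits the signal, went from 0.519 to 4.85 RPKM in the group means (log2 fold change 3.16, SE 0.34; adjusted p = 3.88e-06, limma). The receptor Notch3 went from 0.231 to 1.42 RPKM (2.30, SE 0.42, adjusted p = 0.000723). Mfng (Manic fringe), a glycosyltransferase that modifies Notch receptors, went from 0.512 to 3.84 RPKM (2.70, SE 0.31, adjusted p = 5.46e-06), while the related Lfng had 3.75 and 4.94 RPKM and was not called (0.45, adjusted p = 0.172). Of the Mastermind-like coactivators, which sit with RBPJ on DNA, Maml2 (2.05, SE 0.29, adjusted p = 6.69e-05) and Maml3 (1.79, SE 0.27, adjusted p = 0.000135) were called and Maml1 was not (0.58, adjusted p = 0.0864). The co-repressor Ctbp2 (2.07, SE 0.23, adjusted p = 5.35e-06), the Numb-like adaptor Numbl (1.42, SE 0.37, adjusted p = 0.0105) and the Deltex gene Dtx3 (1.91, SE 0.36, adjusted p = 0.00104) made up the rest. Notch3, Maml3 and Numbl lost their calls with a pseudocount of 1 and with treat, and Dtx3 with treat.

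None of the 10 protease and γ-secretase genes was called, with log2 fold changes from -0.022 (Furin) to 0.71 (Ncstn), and voom also called 0. Of these, 4 had an unadjusted p under 0.05 (limma), all upwards, on a scale where the median of all genes was 0.38. As above, the share of all genes at this p was not counted, so the 4 are a description only. The median of the 10 was 0.40, or 0.0035 after median-ratio scaling. Adam10, the protease that cuts the bound receptor outside the membrane, had an adjusted p of 0.0358 (limma) with a log2 fold change of 0.68, under the threshold of 1. After median-ratio scaling its log2 fold change was 0.28 (adjusted p = 0.0919, limma). Rbpj had 4.55 ± 0.539 RPKM in the AdCMV group and 5.77 ± 0.418 RPKM in the AdVEGF group (SD, n = 5 each), with a log2 fold change of 0.34 (SE 0.19; adjusted p = 0.182, limma) that was -0.055 after median-ratio scaling. Notch2 had group means of 4.65 and 5.90 RPKM and a log2 fold change of 0.46 (SE 0.28; adjusted p = 0.241, limma). The 3 ligand endocytosis genes tested, which include Mib1, were not called either, with 0 of them under an unadjusted p of 0.05. The 11 genes below the filter included the ligands Dll3, Dlk1, Dlk2 and Dner and the targets Hes5 and Hes7, and 4 of the 11 (Dner, Hes3, Hes5 and Helt) had no read in any mouse.

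**Figure D4:**
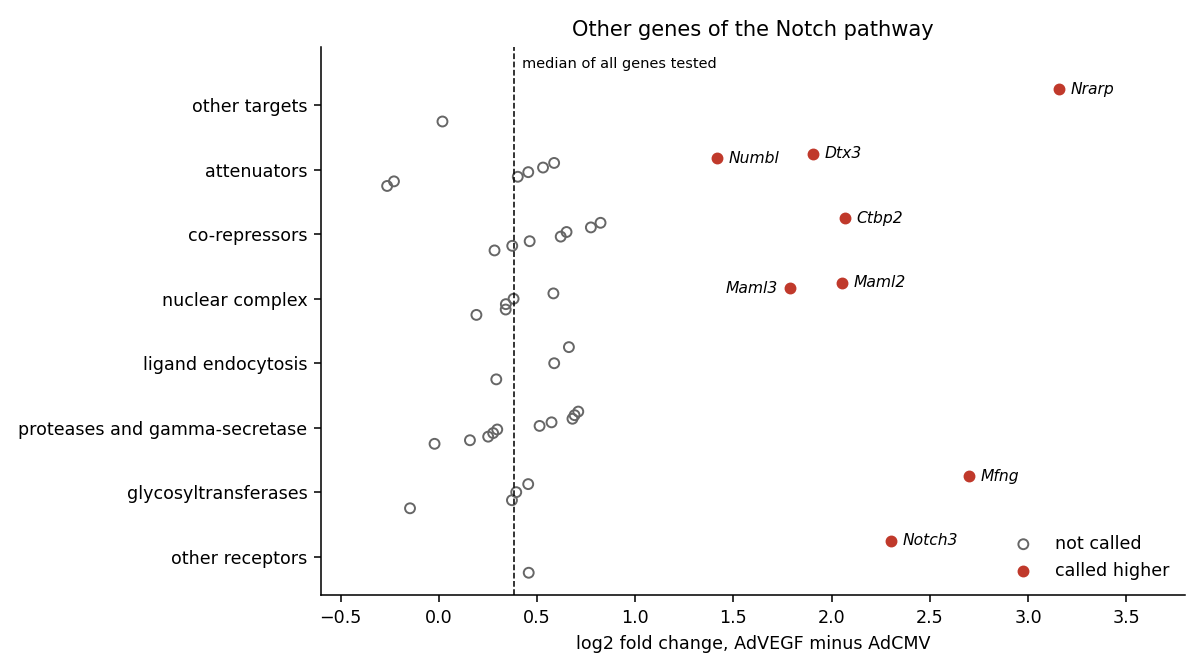
Log2 fold change (AdVEGF minus AdCMV, deposited scale) of the 45 other Notch pathway genes that were tested, by their role; filled points were called higher and the dashed line is the median of all genes tested (0.38). Only Nrarp, Mfng, Notch3, Ctbp2, Maml2, Maml3, Dtx3 and Numbl are filled, and the other 37 lie between -0.26 and 0.82.

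The genes whose profile over the 10 mice was most like that of a Notch gene were sought among the 13932 other genes tested, by the root mean square difference of log2(RPKM + 0.1) after each gene was centred on its own mean. For Dll4 these were Pcdh17 (a protocadherin; difference 0.239) and Armcx2 (0.306). For Notch1 they were Erf, an ETS repressor, and Dock1, both at 0.122. For Notch4 they were Klhl4 (0.225) and Plxnd1, a semaphorin receptor of endothelium (0.244). For Hes1 they were Kitl, the ligand of the receptor Kit (0.193), and Celf4 (0.211). The nearest to Hey1 were Efnb2, the arterial ligand ephrin-B2, at 0.501 and Cd34 at 0.584, further off than the nearest genes of the other 4. Both the difference between the groups and the spread within them enter this measure, and all these profiles share the former.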

How the data were processed

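Liver RNA, depleted of ribosomal RNA, was sequenced from 5 AdVEGF and 5 AdCMV mice. The authors deposited RPKM values for 24016 RefSeq transcripts, and per the labels TopHat, HOMER and mm9 were used. The table also holds transcript lengths and the authors' own fold changes and FDR, which were not used. The text of the methods read here names no test for this comparison and refers to supplemental methods that were not read.

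Whole reads and library totals were recovered from the RPKM steps; at least 99.9757% of the values in each library were whole. The lowest chi-square per degree of freedom between replicates was 12.4, so no library was treated as a copy of another. The 5 transcripts with no symbol (at most 0.00534% of the reads) were left out. Genes whose mean exceeded 0.5 RPKM in either group were tested on log2(RPKM + 0.1) by limma 3.58.1 (lmFit, eBayes with trend; R 4.3.3) over all 10 libraries, with Benjamini-Hochberg adjustment over all genes; this scale understates the change of low genes. Exact tests and counting intervals (95%) used Python 3.11.15 and scipy 1.17.1. The fits were tested on simulated data.

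The named genes were the 10 members, the called genes of the list of other Notch pathway genes, and the 2 nearest profiles of 5 members; Lfng, Maml1, Adam10, Furin, Ncstn, Rbpj, Notch2, Mib1, Krt19, Sox9, Spp1, Alb, Apoa1, Tdo2 and Gm14207, and the genes under the filter, were named after their values were seen. The members and lists were chosen with earlier results of these data known. The alternatives were 3 scalings, 2 pseudocounts, 2 filters, treat, voom on the recovered reads, other endothelial markers, a replicate block and leaving out each library in turn.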

Additional observations from a re-analysis of the deposited data

Results flagged for a closer look

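Hes1 in AdCMV mouse 3, at 26.2 RPKM, stood apart from the other 4 mice of its group: its gap to the nearest of them was 0.746 of the range of the group. It was the only one of 20 groups of values (10 genes in 2 groups) to do so, and chance gives about 1 in 20 such groups. Without this mouse the log2 fold change of Hes1 was 2.44 (limma adjusted p = 1.91e-06), and it was called.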

How the results depend on the processing

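Over all genes, 1808 were called higher and 214 lower. The counts were 1055 and 444 after median-ratio scaling, 1099 and 397 after upper quartile scaling, 1034 and 451 with library totals that leave out the Mup genes, and 503 and 36 with treat; with a pseudocount of 1, 954 were higher. The 7 Notch genes called higher became 6 under each of the 3 scalings, which lost Notch1, 5 with treat, which also lost Jag1, and 9 with no filter. Of the other pathway genes 5 were called with a pseudocount of 1 and 4 with treat, in place of 8. Relative to the endothelial markers, 4 Notch genes were above and 3 below, against 0.517% and 95.6% of all genes tested. Hey1, Notch4 and Heyl, among the 4, were tested only through the AdVEGF group. With a pseudocount of 1, 2 Notch genes were above and 5 below, and Notch4 (-0.33) and Heyl (-0.73) changed sign. With the median of the markers 2 were above, and with no filter 5 were below. The causes were not tested, except that without the filter more genes entered the test. Leaving out 1 library gave 1425 to 2357 genes higher and 178 to 225 lower, 7 Notch genes and 8 other pathway genes called each time, and 3 to 4 Notch genes above and 3 to 4 below the endothelial markers.

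The replicate numbers were not shown to pair the mice: the correlation of the deviations of same-numbered mice was 0.0076 to 0.291. With the number as a block, 1933 genes were higher and 256 lower, 7 Notch genes and 8 other pathway genes were called higher, and 4 Notch genes were above and 4 below the endothelial markers, with Hes1 added (-0.53, limma adjusted p = 0.0112). Depth limits Jag2, Hey1 and Hey2, which rest on 3, 6 and 9 reads in the AdCMV group.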
